A study of Rattus norvegicus with 12 samples.

Results

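Obese and lean rat kidneys were compared through the RNA of their renal cortex, in 4 untreated Zucker Fatty (ZF) and 4 Zucker Lean (ZL) rats, which are 8 of the 12 rats of the study. All were males aged 32 weeks. ZF rats lack a functional leptin receptor, overeat and become obese, and ZL rats are their lean counterparts and served as controls. The remaining 4 animals, ZF rats fed canagliflozin, which blocks the glucose transporter SGLT2 (ZF-SGLT2i), entered the filter on low values, the shared estimate of the spread and a principal component analysis, and no comparison of groups. The study kept untreated ZF rats both in a cohort that had kidney wedge biopsies at earlier ages and in a cohort without biopsies, and the labels do not say from which the ZF rats came. The study's figure legend for the sequencing also calls them ZF-NT, its name for the untreated group of the cohort without biopsies. The study describes ZL rats in the biopsied cohort alone, so that the groups may differ in biopsy, whose part in the results was not tested. Each library was made from total RNA of cortex with ribosomal RNA removed, and the recovered reads on genes ranged from 8886901 to 12210257 per ZL rat and from 8824980 to 11191377 per ZF rat. Values are read counts per gene scaled by the authors for each library (CPM). They summed to 1007730 to 1058520 per ZL rat and 948262 to 988883 per ZF rat, so the totals differed. Values of single rats are given in the order of the rat numbers, 1 to 4 in ZL and 2 to 5 in ZF. Values in brackets after them are the log2 fold change, ZF over ZL, on the scale of log2(CPM + 1), which understates the change of low genes, and the adjusted p of limma's moderated test over all genes tested.

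The cortex of the kidney holds glomeruli, where podocytes, mesangial cells and endothelium form the filter, and the tubule segments that work on the filtrate. The proximal tubule takes up most of the glucose, amino acids, phosphate and filtered protein, burns fatty acids in dense mitochondria, and secretes organic anions and drugs. The thick ascending limb, the distal convoluted tubule and the collecting duct then set the salt, acid and water balance. In whole cortex a marker can fall because fewer of its cells were sampled or because each cell held less of its RNA, and these cannot be told apart here.

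Lepr, the leptin receptor gene, was 12.0, 8.93, 5.78 and 9.56 in ZL and 10.9, 8.72, 11.2 and 8.85 in ZF rats, and the groups overlapped (log2 fold change 0.15, adjusted p = 0.59). The Zucker fatty mutation changes the receptor's coding sequence, so that the level of its mRNA does not test the labels. Of the control genes, Gapdh was 2104 ± 210.5 in ZL and 1992 ± 187 in ZF rats, Actb 1666 ± 115 in ZL and 1455 ± 149 in ZF rats and Hprt1 34.6 ± 2.35 in ZL and 33.6 ± 4.32 in ZF rats (SD, n = 4 each), and none passed (adjusted p = 0.66, 0.19 and 0.77). The tissue label was checked against marker genes. The proximal tubule list of 20 genes summed to 30393 ± 1449.8 in ZL and 24050.0 ± 2939 in ZF rats (SD, n = 4 each). Markers of the inner medulla summed to 219 and 173, and those of lymphocytes to 41.5 and 53.5 on average in ZL and ZF. The sums for adipocytes, 36.5 and 15.7, differed mainly through the droplet gene Cidec, at means of 22.1 and 4.12, whereas the adipocyte hormone gene Adipoq was 13.9 ± 2.43 in ZL and 11.0 ± 1.52 in ZF rats (−0.31, adjusted p = 0.11). Of 4 tested blood genes 1 rose, against 8.19% of all tested genes, and this was the haemoglobin gene Hba2, with 2.60, 2.51, 2.38 and 2.95 in ZL and 10.7, 4.21, 9.32 and 13.6 in ZF rats (1.44, adjusted p = 0.0497), without overlap, and Hbb was 1.08, 0.520, 0.907 and 1.25 in ZL and 4.51, 2.00, 3.08 and 5.79 in ZF rats and did not pass (1.27, adjusted p = 0.085). Haemoglobin genes have close copies that may share reads, and the part of blood left in the tissue was not tested. Cidec lost its call without ZL rat 1 or ZF rat 3 or 5 and Hba2 without ZL rat 1, 2, 3 or 4 or ZF rat 2, 4 or 5, with adjusted p-values of 0.051 to 0.12. No skeletal muscle marker reached a value of 1 in 4 rats. The 4 ZL and the 4 ZF rats separated on the first principal component of all 12 rats, which held 48.0% of the variance. Genes of the circadian clock moved with the group as well, and Dbp, one of its output genes, was 25.3, 37.5, 34.0 and 65.9 in ZL and 250.4, 297, 182 and 286 in ZF rats, and Arntl, its core activator, was 51.4, 47.9, 42.8 and 30.4 in ZL and 3.64, 2.31, 7.01 and 1.42 in ZF rats. Neither overlapped between the groups. The hour at which each kidney was collected is not given in the sources used here, and the part of the clock in the results that follow was not tested. Hba2 did not pass after quantile normalization (adjusted p = 0.065). Hba2 did not pass with array quality weights (adjusted p = 0.1). Hba2 did not pass without the filter on low values (adjusted p = 0.054).

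Of 13151 genes in the table, 11633 reached a value of 1 in 4 or more of the 12 rats and were tested. Of these, 18.8% were called at an adjusted p under 0.05, 953 genes (8.19%) higher and 1232 (10.6%) lower in ZF, and for 19.0% the values of the ZL and ZF rats did not overlap. The median log2 fold change of all tested genes was −0.01. Higher genes made up 43.6% of the calls, but 53.9% (1103 of 2045) after quantile normalization, so that the split between the directions depended on the scaling. The number of calls fell to 1389 without ZL rat 1, to 1451 without ZF rat 2 and to 1426 without ZF rat 3. List counts of 0 to 2 genes could also move by 1 gene between fits, which is not followed further. The shares of called genes are the background against which the gene lists are read. A list with similar shares does not stand out from the rest of the table. The plot of called genes by list shows lists of mitochondrial, amino acid and late proximal tubule genes at the lower end and lists of tubule injury and podocyte genes at the upper end.

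**Figure D1:**
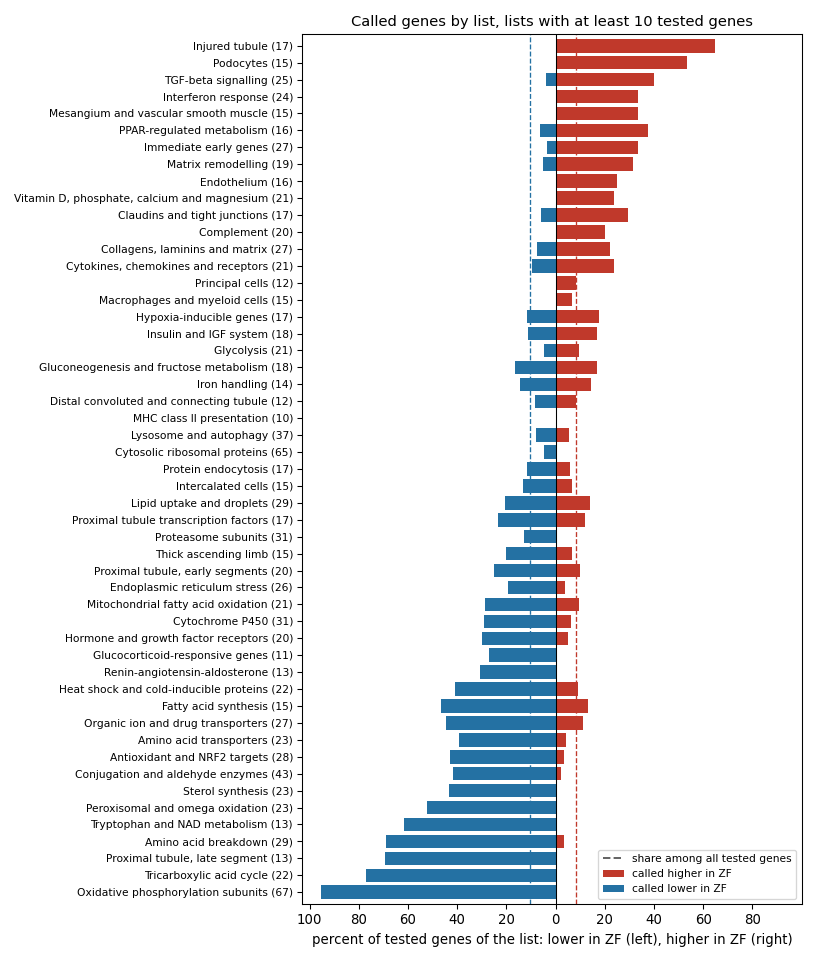
Bars give the percent of the tested genes of each list that were called lower (left) or higher (right) in ZF than in ZL rats, with the number of tested genes in brackets; dashed lines mark the shares among all tested genes, 10.6% and 8.19%. In the oxidative phosphorylation list 64 of 67 genes were lower, and in the injured tubule list 11 of 17 were higher.

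The late proximal tubule, the straight segment that reaches into the outer medulla, had the lowest median change of the nephron segment lists. Of its 13 tested markers, 9 fell and none rose, with a median log2 fold change of −0.99. The cystine and aspartate transporter gene Slc7a13 was 838, 139.9, 244 and 1896 in ZL and 148, 21.4, 36.0 and 6.12 in ZF rats (log2 fold change −3.98, standard error 0.83, adjusted p = 0.006). ZF rat 2 stood just above the lowest ZL rat, so that the groups overlapped. Slco1a1, an organic anion transporter of the brush border, was 125, 33.1, 49.0 and 261 in ZL and 27.0, 3.11, 10.2 and 0.874 in ZF rats (−3.63, adjusted p = 0.0046), without overlap. It was named among the largest falls without overlap, so that the separation is no further result. Agt, which encodes angiotensinogen, was 40.7, 13.8, 17.1 and 79.1 in ZL and 16.7, 2.91, 7.26 and 1.42 in ZF rats (−2.33, adjusted p = 0.013). ZL rats 1 and 4 were above all other rats and ZF rat 2 lay among the lower ZL rats. Slc5a1, the sodium-glucose cotransporter SGLT1 of this segment, was 69.5 ± 11.1 in ZL and 35.3 ± 10.6 in ZF rats (log2 fold change −0.99, standard error 0.19, adjusted p = 0.0043, SD and n = 4 each), without overlap. Slc5a2, which encodes SGLT2 of the early segment, was 426 ± 118 in ZL and 460.1 ± 67.7 in ZF rats (0.14, adjusted p = 0.6). Kap, the kidney androgen-regulated protein of the same straight segment, was 1958, 969, 1363 and 3060.2 in ZL and 584, 246, 499 and 159 in ZF rats (−2.35, adjusted p = 0.0017), and the lowest ZL rat stood above the highest ZF rat.

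Apart from Slc5a1, these late proximal tubule genes also varied together among rats of 1 group. Slc5a1 was 79.3, 58.3, 61.5 and 78.8 in ZL and 44.4, 25.1, 44.6 and 27.2 in ZF rats, in another order. ZL rat 4 had the highest and ZL rat 2 the lowest value of Slc7a13, Slco1a1, Agt and Kap, and in ZF the order was rat 2, 4, 3 and 5 for all of them. The plot of single genes by rat shows the same order for Gclc and Aadat. Umod and Slc12a1, markers of the thick ascending limb, which lies in the outer medulla and its rays in the cortex, were also highest in ZL rat 4 and ZF rat 2 of their groups. Umod was 3014, 2190.3, 2333 and 3985 in ZL and 4034, 2559, 2850.4 and 2418 in ZF rats (0.05, adjusted p = 0.88) and Slc12a1 was 904, 709, 811 and 1326 in ZL and 1001, 643, 758 and 679 in ZF rats (−0.26, adjusted p = 0.33). The groups overlapped in both, and how much the depth of the cortex sample shared in the late proximal tubule values was not tested.

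**Figure D2:**
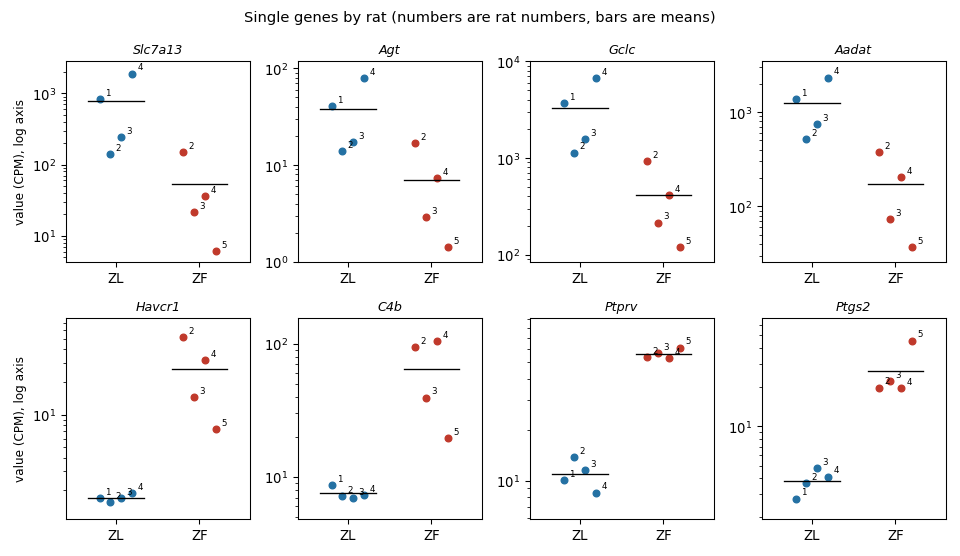
Values (CPM, log axis) of 8 genes in the 4 ZL and the 4 ZF rats, numbered by rat, with bars at the arithmetic means. Slc7a13, Agt, Gclc and Aadat were high in ZL rats 4 and 1, and Havcr1, C4b, Ptprv and Ptgs2 had all ZF rats above all ZL rats. The latter were named among the largest rises without overlap, so that this is no further result.

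The early proximal tubule moved less and in both directions. Of 20 tested markers, 5 fell and 2 rose, with a median of −0.16 that became 0.01 after quantile normalization, where 2 fell and 3 rose. On the ZL and ZF rats alone 3 fell and 1 rose. Slc3a1, the heavy subunit of the cystine transporter, fell from 2200.5 ± 1153 to 815 ± 256 (SD, n = 4 each; −1.34, adjusted p = 0.0098). Slc22a12, the urate transporter URAT1, fell from 421 ± 136 to 211 ± 39.5 (−0.96, adjusted p = 0.0035). Slc2a2, the basolateral glucose transporter GLUT2, rose (0.55, adjusted p = 0.026). Slc34a1, the main phosphate transporter, was 4580.4 ± 714 in ZL and 3936 ± 152 in ZF rats (−0.21, adjusted p = 0.27). Lrp2, which encodes the endocytic receptor megalin, was 11361, 10533, 10608 and 10444 in ZL and 7869, 7247, 9531 and 6695 in ZF rats, without overlap, but did not pass (−0.47, adjusted p = 0.073). Transcription factors of the tubule were mixed, with 4 of 17 lower and 2 higher. The hepatocyte nuclear factor gene Hnf4g (−0.58, adjusted p = 0.014) and the corepressor gene Nr0b2 (−0.87, adjusted p = 0.0015) fell, whereas Ppara, the receptor that switches on fatty acid oxidation genes, rose from 45.0 ± 5.97 to 67.7 ± 12.6 (0.57, adjusted p = 0.0086). Slc2a2 lost its call without ZL rat 1 or 4 or ZF rat 3 or 4, with adjusted p-values of 0.058 to 0.077. Leaving out rats moved the counts of early markers past 1.5 times, to 3 without ZL rat 1 or 2 or ZF rat 2 or 5 for lower ones and 0 without ZL rat 1 or 4 or ZF rat 3 or 4 and 1 without ZF rat 5 for higher ones.

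Beyond the proximal tubule, the share of called markers lay on either side of the 18.8% of all tested genes, from 8.33% in principal cells to 26.7% in the thick ascending limb among lists of 10 or more genes. In the thick ascending limb 3 of 15 markers fell and 1 rose. Egf, the epidermal growth factor precursor made in this limb and the distal tubule, was 2188, 2171, 2139 and 1735 in ZL and 1275, 1218, 1117 and 1389 in ZF rats (log2 fold change −0.72, standard error 0.12, adjusted p = 0.0014), without overlap. Sostdc1, an inhibitor of bone morphogenetic proteins, rose (0.53, adjusted p = 0.015) and Ppp1r1a, a phosphatase inhibitor, fell (−0.57, adjusted p = 0.00065). Among 4 tested macula densa genes, Ptgs2 (cyclooxygenase-2) was 2.78, 3.64, 4.76 and 4.11 in ZL and 19.8, 22.1, 19.7 and 45.6 in ZF rats (log2 fold change 2.45, standard error 0.24, adjusted p = 3.1e-05), so that every ZF rat was above every ZL rat and ZF rat 5 was highest. Ptgs2 was named among the largest rises without overlap, so that the separation is no further result. Nos1, the nitric oxide synthase of the same cells, was 3.29 ± 0.722 in ZL and 3.49 ± 0.689 in ZF rats (0.07, adjusted p = 0.83). In the distal convoluted and connecting tubule the calcium channel gene Trpv5 rose (0.59, adjusted p = 0.0031) and the sodium pump subunit Fxyd2 fell (−0.45, adjusted p = 0.0035), while the thiazide-sensitive cotransporter gene Slc12a3 was 1759 ± 383 in ZL and 2255 ± 457 in ZF rats (0.36, adjusted p = 0.14). In principal cells the sodium channel subunit Scnn1g rose from 95.3 ± 8.02 to 142 ± 25.0 (0.56, adjusted p = 0.0065), and the water channel gene Aqp2 was 443 ± 109.8 in ZL and 558 ± 98.8 in ZF rats (0.35, adjusted p = 0.15). In intercalated cells Slc26a7, an anion exchanger, fell (−0.71, adjusted p = 0.0004) and Aqp6 rose (0.51, adjusted p = 0.0069). Atp6v1b1, a proton pump subunit, was 259 ± 49.3 in ZL and 274 ± 42.0 in ZF rats (0.09, adjusted p = 0.68), and the bicarbonate exchanger gene Slc4a1 512 ± 91.3 in ZL and 417 ± 75.3 in ZF rats (−0.30, adjusted p = 0.13). Of the 5 tested inner medulla genes, aldose reductase (Akr1b1; 0.31, adjusted p = 0.022) rose and the inositol transporter gene Slc5a3 fell (−0.41, adjusted p = 0.027). Single rats moved the count of higher principal cell genes to 4 without ZF rat 4 and 5 without ZL rat 2 and quantile normalization to 4. The 1 higher and 2 lower intercalated cell genes became 2 higher and 1 lower with that scaling. Slc5a3 lost its call without ZL rat 2 or 4 or ZF rat 3 or 4 and Akr1b1 without ZL rat 3 or ZF rat 2, with adjusted p-values of 0.051 to 0.086. Slc5a3 did not pass on the ZL and ZF rats alone (adjusted p = 0.051).

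**Figure D3:**
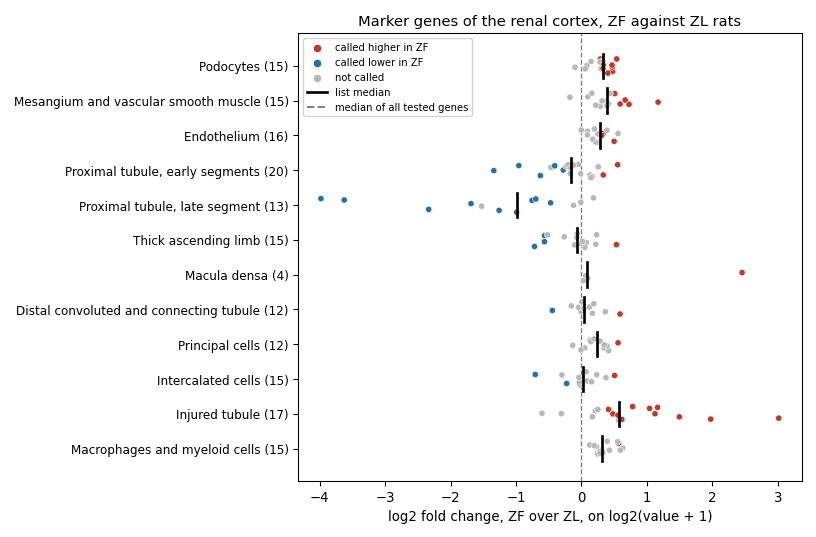
Each point is the log2 fold change of a marker gene, ZF over ZL, with called genes coloured, list medians as black bars and the number of tested genes in brackets. Late proximal tubule genes reached −3.98 (Slc7a13) and injured tubule genes 3.01 (Havcr1).

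Glomerular and vascular markers lay above 0 as groups. In podocytes 8 of 15 tested markers rose and none fell, with a median of 0.33, led by Clic5 (0.54, adjusted p = 0.0033), Kirrel (0.48, adjusted p = 0.0013), Nphs1 (0.47, adjusted p = 0.0093) and Plce1 (0.47, adjusted p = 0.017). Nphs1 encodes nephrin of the slit diaphragm and was 133, 173, 134 and 132 in ZL and 203, 211, 162 and 219 in ZF rats, where ZL rat 2 stood above ZF rat 4. Among mesangial and smooth muscle markers 5 of 15 rose, among them the intermediate filament gene Des, from 11.1 ± 3.11 to 26.3 ± 7.22 (1.17, adjusted p = 0.002), and the growth factor receptor gene Pdgfrb (0.67, adjusted p = 0.0022), with Mcam (0.59, adjusted p = 0.02) and the integrin gene Itga8 (0.73, adjusted p = 0.028). Endothelial markers had 4 of 16 called higher and a median of 0.28, among them Egfl7 (0.50, adjusted p = 0.02) and the receptor gene Tie1 (0.31, adjusted p = 0.02). Left out in turn, single rats moved these counts past 1.5 times, to 4 without ZL rat 1 or ZF rat 2 or 5 and 5 without ZL rat 3 for podocytes, to 3 without ZF rat 2 for mesangium and to 0 without ZL rat 3 or ZF rat 2, 1 without ZL rat 1, 2 without ZF rat 3 and 8 without ZL rat 2 for endothelium. Plce1 lost its call without ZL rat 1 or ZF rat 2, Itga8 without ZL rat 1 or 3 or ZF rat 2 or 4, Tie1 without ZL rat 1 or 3 or ZF rat 2 or 3, Egfl7 without ZL rat 3 or ZF rat 2 or 5 and Mcam without ZF rat 2 or 3, with adjusted p-values of 0.0503 to 0.086.

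Genes of injured tubule cells rose together, 11 of 17 with none lower and a median of 0.57. Spp1, which encodes osteopontin, was 167, 178, 166 and 166 in ZL and 1473, 411, 1056 and 313 in ZF rats (1.98, adjusted p = 0.011), and Havcr1, the kidney injury molecule, was 1.70, 1.56, 1.70 and 1.88 in ZL and 52.3, 14.6, 32.1 and 7.32 in ZF rats (3.01, adjusted p = 0.0038). The ZL rats lay close together, whereas ZF rats 2 and 4 were well above ZF rats 3 and 5. Cd44, a hyaluronan receptor of damaged and regrowing tubules, rose from 16.6 ± 2.07 to 38.7 ± 6.59 (SD, n = 4 each; 1.16, adjusted p = 3e-05). Lcn2, the injury marker lipocalin, was 2.51, 2.17, 3.40 and 2.59 in ZL and 20.9, 7.02, 11.0 and 4.26 in ZF rats (1.50, adjusted p = 0.021), and clusterin (Clu) rose (1.12, adjusted p = 0.0003). The transcription factor gene Sox9 had a log2 fold change below 0 and did not pass (−0.60, adjusted p = 0.13). Among claudins and other tight junction genes, which set the paracellular seal, 5 of 17 rose and 1 fell, and with single rats left out the number that rose was 3 without ZL rat 1 or 3 or ZF rat 2 or 5, as it was on the ZL and ZF rats alone. Cldn4, of the collecting duct and of stressed epithelium, rose from 20.9 ± 1.78 to 37.5 ± 8.74 (0.79, adjusted p = 0.0015). Cldn5, of endothelium (0.58, adjusted p = 0.0034), and Cldn15 (0.63, adjusted p = 0.021) rose as well. Lcn2 lost its call without ZL rat 1 or ZF rat 2 and Cldn15 without ZL rat 1 or 3 or ZF rat 2 or 5, with adjusted p-values of 0.051 to 0.062. Cldn15 did not pass on the ZL and ZF rats alone (adjusted p = 0.053).

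Genes of the respiratory chain fell nearly as a whole. Of 67 tested nuclear genes for subunits of the respiratory chain and ATP synthase, 64 fell in ZF and none rose, against 10.6% lower among all tested genes. Their log2 fold changes ran from −0.61 to −0.15 with a median of −0.36. The fall held 33 of 34 subunits of complex I, 8 of 9 of complex III, 9 of 9 of complex IV and 14 of 15 of the ATP synthase, with a median of −0.36 in each. Ndufs4, Cyc1 and Atp5b were the genes that did not pass (−0.15, adjusted p = 0.14, −0.20, adjusted p = 0.063 and −0.27, adjusted p = 0.075). The summed level of the list was 16634, 16096, 16039 and 15081 in ZL and 11490.2, 12702, 14183 and 11997 in ZF rats, so that the highest ZF rat, rat 4, stayed below the lowest ZL rat, rat 4. Ndufs6, a complex I subunit, had the largest fall of the list, from 23.1 ± 1.89 to 14.8 ± 1.29 (SD, n = 4 each; −0.61, adjusted p = 0.00087), the small ATP synthase subunit genes Atp5i (−0.59, adjusted p = 0.0038) and Atp5j2 (−0.55, adjusted p = 0.0015) were close to it, and Uqcrb of complex III was 114, 113, 119.5 and 90.4 in ZL and 64.1, 67.5, 86.2 and 75.0 in ZF rats (−0.57, adjusted p = 0.0078). Quantile normalization left 52 of the 67 genes lower and none higher, with a median of −0.28.

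The tricarboxylic acid cycle followed the same direction. All 22 tested genes of the cycle and of pyruvate dehydrogenase had log2 fold changes below 0, and 17 fell, with a median of −0.30. Pdha1, the catalytic subunit of pyruvate dehydrogenase, was 665, 599, 619 and 704 in ZL and 473, 469, 521 and 446 in ZF rats (−0.44, adjusted p = 0.002), without overlap. Pdhb (−0.39, adjusted p = 0.00036), Fh, which encodes fumarase (−0.37, adjusted p = 0.0086), and Mdh2, malate dehydrogenase (−0.35, adjusted p = 0.014), fell as well. Citrate synthase, often used as a measure of mitochondrial mass, was 149 ± 11.2 in ZL and 131 ± 10.9 in ZF rats (−0.19, adjusted p = 0.11), and its gene Cs did not pass. After quantile normalization 5 genes of the cycle were called, and the number that fell was 8 without ZL rat 1 or ZF rat 2 and 10 without ZL rat 3 or ZF rat 5. Mdh2 did not pass after quantile normalization (adjusted p = 0.052).

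**Figure D4:**
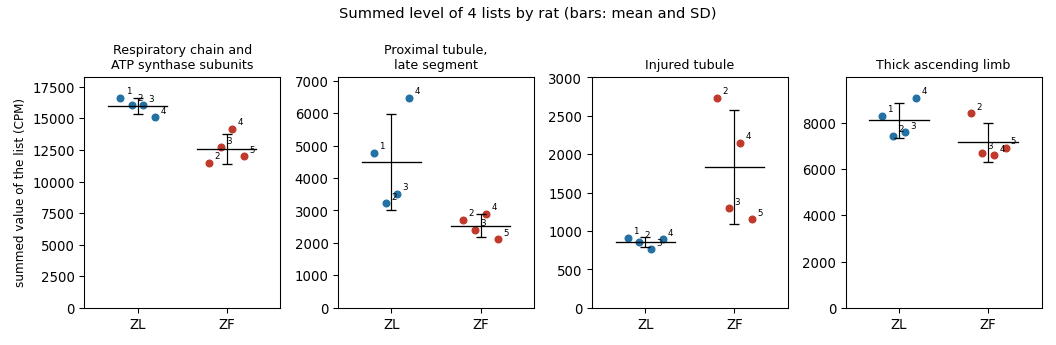
Summed values (CPM) of the genes of 4 lists in each rat, numbered by rat, with the mean and SD of each group. The sums of respiratory chain and late proximal tubule genes were lower in every ZF rat than in every ZL rat, that of injured tubule genes was higher, and those of the thick ascending limb overlapped.

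Fatty acid oxidation did not move as 1 group. Of 21 tested genes of mitochondrial oxidation, 6 fell and 2 rose. Cpt1a, which admits fatty acids to the mitochondrion, was 235, 244, 256 and 219 in ZL and 307, 348, 353 and 336 in ZF rats (0.49, adjusted p = 0.00035), all ZF rats above all ZL rats, whereas the downstream enzyme genes Echs1 (−0.63, adjusted p = 9.8e-05), Acadm (−0.47, adjusted p = 0.0061) and Eci2 (−0.41, adjusted p = 0.016) fell. In peroxisomes and omega oxidation 12 of 23 genes fell and none rose, with a median of −0.31. Catalase (Cat), which breaks down the hydrogen peroxide made there, was 1501, 1059, 1297 and 1685 in ZL and 819, 704, 928 and 668 in ZF rats (−0.82, adjusted p = 0.0023), without overlap, and Amacr, a racemase for branched fatty acids, fell by a similar amount (−0.93, adjusted p = 0.0012). Acox2, of branched-chain oxidation, was 8.40 ± 6.26 in ZL and 2.12 ± 0.839 in ZF rats (−1.41, adjusted p = 0.014). Eci2 lost its call without ZL rat 1, with an adjusted p of 0.054.

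Genes under the control of the receptor PPARalpha did not share that pattern. Bdh1, which interconverts the ketone bodies, fell from 59.2 ± 3.47 to 31.9 ± 1.69 (SD, n = 4 each; −0.87, adjusted p = 1.2e-05). Vnn1, a pantetheinase (0.98, adjusted p = 0.0039), and Creb3l3, a transcription factor gene of lipid metabolism (1.69, adjusted p = 0.00031), rose, the latter from low values of 0.897, 0.433, 0.454 and 0.179 in ZL and 2.21, 3.31, 5.38 and 4.70 in ZF rats. Pdk4, Angptl4 and Acot1, other genes known to respond to this receptor, had log2 fold changes of −0.28, 0.83 and −0.17 and did not pass (adjusted p = 0.37, 0.15 and 0.4). In all, 6 of 16 genes of the list rose and 1 fell.

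Sterol synthesis was lower in ZF. Of 23 tested genes 10 fell, none rose, and 22 had a log2 fold change below 0, with a median of −0.28. Dhcr7, the reductase that completes cholesterol, was 45.8, 28.3, 31.5 and 65.7 in ZL and 14.3, 13.4, 19.7 and 12.6 in ZF rats (−1.40, adjusted p = 0.0017), without overlap. Sqle, squalene epoxidase, fell as well (−0.62, adjusted p = 0.0012). Leaving out rats moved the count of lower genes past 1.5 times, to 6 without ZL rat 1 or 4 or ZF rat 2, 3 or 5, and so did the fit of the ZL and ZF rats alone, to 6. In fatty acid synthesis 7 of 15 genes fell and 2 rose. Acss2, which activates acetate, was 484, 208, 249.8 and 798 in ZL and 200.1, 103, 141 and 81.2 in ZF rats (−1.59, adjusted p = 0.0081), and malic enzyme (Me1; −0.90, adjusted p = 0.0017) and the desaturase genes Scd2 (−0.63, adjusted p = 0.0098) and Fads1 (−0.53, adjusted p = 0.0031) fell as well. Fasn was 133 ± 13.2 in ZL and 121 ± 15.2 in ZF rats (−0.14, adjusted p = 0.37). Acly, which makes cytosolic acetyl-CoA (0.21, adjusted p = 0.025), and the elongase gene Elovl6 (0.41, adjusted p = 0.014) rose. Acly lost its call without ZL rat 4 or ZF rat 3, with adjusted p-values of 0.055 to 0.063. Acly did not pass on the ZL and ZF rats alone (adjusted p = 0.061).

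Lipid handling genes had no common direction, with 4 of 29 higher and 6 lower. The number lower was 3 without ZL rat 1 or ZF rat 5. The cholesterol exporter gene Abca1 rose from 51.8 ± 6.98 to 83.4 ± 12.9 (0.67, adjusted p = 0.0019), and Lpin2, a phosphatidate phosphatase gene, rose by 0.75 on the log2 scale (adjusted p = 0.00041). Gpam, the enzyme of the first step of glycerolipid synthesis, fell (−0.81, adjusted p = 0.0001). The fatty acid receptor gene Cd36 and the droplet gene Plin2 were 34.9 ± 7.38 in ZL and 41.4 ± 7.74 in ZF rats and 63.5 ± 5.36 in ZL and 64.4 ± 7.43 in ZF rats and did not pass (adjusted p = 0.28 and 0.92). Cidec, a droplet fusion gene, was 25.4, 7.02, 10.2 and 45.8 in ZL and 9.78, 1.80, 4.44 and 0.437 in ZF rats (−2.22, adjusted p = 0.019) and followed the rat order of the late proximal tubule genes. Cidec lost its call without ZL rat 1 or ZF rat 3 or 5, with adjusted p-values of 0.051 to 0.058.

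Amino acid breakdown fell in 20 of 29 tested genes, with a median of −0.50. Fah and Hgd encode the last and a middle enzyme of tyrosine degradation. Fah was 197, 131, 160.1 and 210.2 in ZL and 81.1, 73.8, 106 and 67.1 in ZF rats (−1.08, adjusted p = 0.00083) and Hgd 269, 169.7, 232 and 310.4 in ZL and 135, 102, 130.3 and 90.4 in ZF rats (−1.08, adjusted p = 0.001), both without overlap. Cth, which makes cysteine from cystathionine, fell from 205 ± 106 to 68.4 ± 20.1 (SD, n = 4 each; −1.47, adjusted p = 0.0041). The 1 gene that rose was Bcat1, the cytosolic aminotransferase, at low values of 0.628, 0.260, 0.340 and 0.536 in ZL and 1.05, 1.40, 1.97 and 1.75 in ZF rats (0.81, adjusted p = 0.0064).

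The pathway from tryptophan to NAD held 8 lower genes of 13 and none higher. Aadat, the aminotransferase that turns kynurenine into kynurenic acid, was 1383, 515, 743 and 2317 in ZL and 373, 72.9, 206 and 36.8 in ZF rats (log2 fold change −3.12, standard error 0.59, adjusted p = 0.0038). All ZF rats were below all ZL rats, which the rule for the largest falls required. Within each group the rats stood in the order of the late proximal tubule genes. Enzymes of the main branch varied less among rats. Kynu, kynureninase, was 53.1, 43.2, 54.4 and 51.8 in ZL and 23.0, 26.9, 36.2 and 25.9 in ZF rats (−0.85, adjusted p = 0.00047), and Afmid, which forms kynurenine, was 157, 157, 129.6 and 152 in ZL and 96.7, 87.4, 99.1 and 89.3 in ZF rats (−0.67, adjusted p = 0.00019). Acmsd, which draws an intermediate away from NAD synthesis, fell (−0.72, adjusted p = 0.0021). Nampt, which recycles NAD, was 63.5 ± 2.68 in ZL and 65.0 ± 3.12 in ZF rats (0.03, adjusted p = 0.72).

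Glutathione and antioxidant genes fell in 12 of 28 and rose in 1. Gclc, the catalytic subunit of the enzyme that limits glutathione synthesis, was 3722, 1134, 1559 and 6730.3 in ZL and 923, 214, 412 and 119.7 in ZF rats (log2 fold change −3.03, standard error 0.57, adjusted p = 0.0037). It was among the abundant genes of the ZL cortex, and every ZF rat was below every ZL rat. The rule for the largest falls, which named it, required this, so that it is no further result. Gclm, its modifier subunit, was 761, 275, 355 and 1409 in ZL and 342, 163, 221 and 148 in ZF rats (−1.46, adjusted p = 0.023), with ZF rat 2 among the ZL rats. The NRF2 target genes Nqo1, Hmox1, Srxn1 and Txnrd1 had log2 fold changes of −0.31, 0.02, 0.17 and −0.33, and Txnrd1 alone of these passed (adjusted p = 0.0034). The 1 gene that rose was the glutathione peroxidase gene Gpx1 (0.53, adjusted p = 0.014). Gclm lost its call without ZL rat 1 or ZF rat 3 or 5, with adjusted p-values of 0.063 to 0.068. Leaving out rats moved the count of lower genes past 1.5 times, to 6 without ZL rat 1 and 7 without ZF rat 3 or 5. Gclm did not pass on the ZL and ZF rats alone (adjusted p = 0.062).

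Transport and metabolism of drugs and other organic compounds were lower as groups. Among organic ion transporters 12 of 27 fell and 3 rose, with a median of −0.38. The number lower was 7 without ZL rat 1, and the number higher was 0 without ZF rat 3 and 1 without ZL rat 1, 2 or 3 or ZF rat 2, 4 or 5, and 1 on the ZL and ZF rats alone. Slco4c1, a transporter of digoxin and thyroid hormone, was 32.8, 6.94, 11.6 and 58.2 in ZL and 9.40, 4.31, 4.19 and 2.40 in ZF rats (−1.92, adjusted p = 0.018). Slc22a6, the anion transporter OAT1, was 669.7 ± 97.1 in ZL and 838 ± 61.9 in ZF rats (0.33, adjusted p = 0.04). Slc21a4 (Slco1a3 in the reference), Slco1a6, Slco1a1 and Slco1a2 belong to a family with similar sequences whose reads may be shared, so they were also summed. The sum was 846, 212, 350.8 and 1689 in ZL and 227, 36.8, 97.3 and 11.7 in ZF rats, with ZF rat 2 above ZL rat 2 (p = 0.0571 by a two-sided exact permutation test). Among cytochrome P450 genes 9 of 31 fell and 2 rose. Cyp2c11, a male-specific enzyme in rats, was 27.6, 5.29, 5.78 and 46.7 in ZL and 4.70, 0.601, 1.11 and 0 in ZF rats (−2.89, adjusted p = 0.0065), and Cyp4a8 was 572, 304, 419.9 and 768 in ZL and 320.2, 131, 249 and 99.6 in ZF rats (−1.43, adjusted p = 0.011). Cyp2d1 (−2.05, adjusted p = 0.029) and Cyp2d5 (−1.84, adjusted p = 0.014) fell as well. These P450 families also hold close copies, so the split among members is uncertain. Of conjugating and aldehyde-clearing enzymes 18 of 43 fell and 1 rose, with Akr7a3, an aldehyde reductase, at 509, 269, 337 and 609.9 in ZL and 177, 166, 222 and 135 in ZF rats (−1.24, adjusted p = 0.0029). The sulfotransferase gene Sult1b1 (−1.04, adjusted p = 0.013) and the glucuronosyltransferase gene Ugt2b7 (−1.60, adjusted p = 0.011) fell by similar or larger amounts. Slco4c1 lost its call without ZL rat 1 or ZF rat 5, Slc22a6 without ZL rat 1 or 4 or ZF rat 3, 4 or 5 and Cyp2d1 without ZL rat 1 or 4 or ZF rat 3 or 5, with adjusted p-values of 0.052 to 0.086. Slco4c1, Slc22a6 and Cyp2d1 did not pass on the ZL and ZF rats alone (adjusted p = 0.0504, 0.078 and 0.073).

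**Figure D5:**
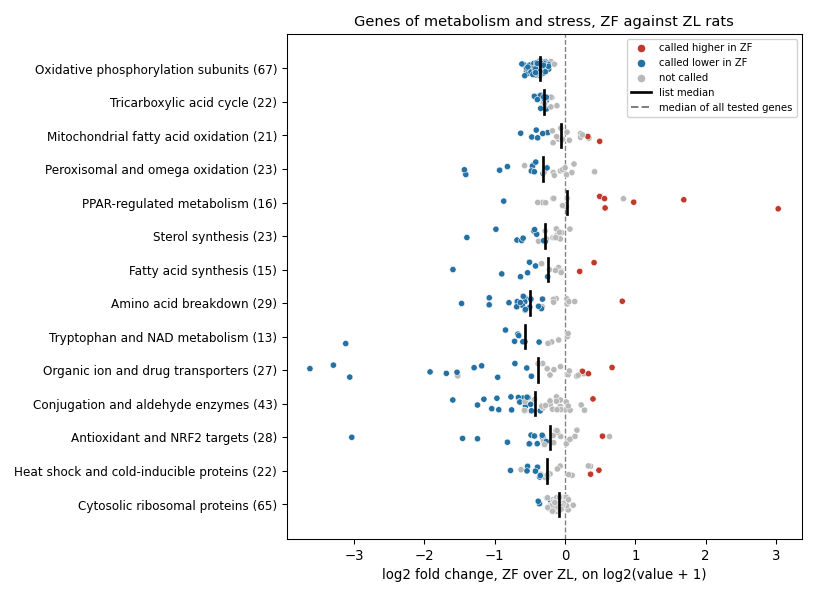
Each point is the log2 fold change of a gene, ZF over ZL, with called genes coloured, list medians as black bars and the number of tested genes in brackets. Respiratory chain genes formed a narrow group around −0.36, while ribosomal protein genes lay around −0.08 with 3 of 65 called.

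Amino acid transporters fell in 9 of 23 and rose in 1. Slc38a3, which carries glutamine into the tubule cell for ammonia production, was 123, 50.8, 65.2 and 208 in ZL and 35.9, 18.7, 19.9 and 22.7 in ZF rats (−1.99, adjusted p = 0.0019), without overlap. Slc6a18, a glycine transporter gene, fell (−1.11, adjusted p = 0.019). Slc7a5, the large neutral amino acid transporter LAT1, rose (0.86, adjusted p = 0.0043). In glucose production the list was split, with 3 of 18 higher and 3 lower, or 5 and 1 after quantile normalization, and 1 was lower on the ZL and ZF rats alone. With single rats left out the number higher was 1 without ZF rat 4 and the number lower was 1 without ZL rat 1 or ZF rat 2 or 3. Pck1, the cytosolic carboxykinase that commits to glucose, was 1756, 2043, 1789 and 972 in ZL and 2169, 2327, 2883 and 3107 in ZF rats (0.71, adjusted p = 0.029), all ZF rats above all ZL rats. G6pc, which releases free glucose, was 1029 ± 373 in ZL and 734 ± 161 in ZF rats (−0.43, adjusted p = 0.23), and Glud1, which frees ammonia from glutamate, fell (−0.58, adjusted p = 0.0015). Of 21 genes of glycolysis and lactate transport 2 rose and 1 fell, although the number that fell was 2 without ZF rat 4 and 4 without ZL rat 4. The lactate transporters parted, Slc16a1 (MCT1) with 98.5, 119, 132 and 45.1 in ZL and 17.2, 19.0, 40.5 and 12.1 in ZF rats (log2 fold change −2.13, standard error 0.34, adjusted p = 0.0013) and Slc16a3 (MCT4) with 2.96, 3.64, 3.74 and 2.14 in ZL and 4.79, 5.71, 6.41 and 7.98 in ZF rats (0.81, adjusted p = 0.0054). Pfkfb3, which makes an activator of glycolysis, rose (0.83, adjusted p = 0.00051). Slc6a18 lost its call without ZL rat 1 or ZF rat 3 or 5 and Pck1 without ZF rat 4 or 5, with adjusted p-values of 0.055 to 0.079. Pck1 did not pass on the ZL and ZF rats alone (adjusted p = 0.059).

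In the renin-angiotensin system 4 of 13 genes fell and none rose (the number that rose was 1 without ZL rat 2 or ZF rat 4 and 2 without ZL rat 4). Besides Agt, genes of peptidases that degrade angiotensins were lower. Mme (neprilysin) was 504, 256, 285 and 877 in ZL and 212, 98.1, 122 and 93.0 in ZF rats (−1.76, adjusted p = 0.0035) and Anpep (aminopeptidase N) was 629, 472, 492 and 757 in ZL and 356, 294, 409 and 263 in ZF rats (−0.82, adjusted p = 0.0037). Ace, the converting enzyme gene, and the receptor gene Agtr1a had log2 fold changes of −0.33 and −0.13 and did not pass (adjusted p = 0.45 and 0.51). Mme and Anpep are brush border genes, and Agt and Mme had the rat order of the late proximal tubule, with ZL rat 4 highest and ZF rat 5 lowest.

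Both regulated enzymes of vitamin D metabolism rose. Cyp24a1, which inactivates the hormone, was 59.9, 34.8, 54.1 and 25.8 in ZL and 114, 145, 115 and 59.8 in ZF rats (1.30, adjusted p = 0.0093), with ZF rat 5 level with ZL rat 1. Cyp27b1, which activates it, was low at 0.449, 0.347, 0.907 and 0.179 in ZL and 1.53, 1.40, 1.88 and 2.51 in ZF rats (0.95, adjusted p = 0.008). Kl, which encodes the FGF23 co-receptor Klotho, was 805 ± 88.0 in ZL and 826 ± 63.2 in ZF rats (0.04, adjusted p = 0.78). Of the 21 genes of mineral handling 5 rose and none fell (with single rats left out the number that rose was 3 without ZL rat 3 or ZF rat 3 or 5, as it was on the ZL and ZF rats alone).

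Among hormone receptors 6 of 20 fell and 1 rose, and the number that fell was 2 without ZL rat 1 or 4 or ZF rat 3 or 5, and 3 on the ZL and ZF rats alone. The thyroid hormone receptor gene Thrb was 174, 155, 157 and 183 in ZL and 129, 127, 123 and 110.0 in ZF rats (−0.45, adjusted p = 0.0012), without overlap, the prolactin receptor gene Prlr fell (−1.12, adjusted p = 0.033), and the calcitonin receptor gene Calcr rose (0.42, adjusted p = 0.011). In the insulin and IGF system, Igf1 mRNA fell from 8.77 ± 1.49 to 4.48 ± 1.09 (SD, n = 4 each; −0.84, adjusted p = 0.0043) and its binding protein gene Igfbp1 rose (0.47, adjusted p = 0.012). Igfbp2, another binding protein gene, rose (0.42, adjusted p = 0.018). The study found the protein of Igf1, measured by ELISA in renal cortex, to be higher in its ZF group, opposite in direction to the mRNA here. The insulin receptor gene Insr was 137 ± 5.41 in ZL and 127 ± 6.01 in ZF rats (−0.11, adjusted p = 0.19). Hsd11b1, which regenerates active glucocorticoid, was 486, 325, 379.6 and 572 in ZL and 293, 228, 286 and 181 in ZF rats (−0.83, adjusted p = 0.008), without overlap. Prlr lost its call without ZL rat 1 or 4 or ZF rat 3 or 5 and Igfbp2 without ZL rat 1 or ZF rat 2 or 5, with adjusted p-values of 0.051 to 0.092. Prlr did not pass on the ZL and ZF rats alone (adjusted p = 0.075).

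Complement genes rose in 4 of 20 and fell in none. C4b, of the classical pathway, was 8.70, 7.20, 6.92 and 7.33 in ZL and 93.8, 39.4, 104 and 19.7 in ZF rats (2.66, adjusted p = 0.0031), and C4a was 81.6, 56.7, 57.6 and 80.2 in ZL and 269, 141, 281 and 92.1 in ZF rats (1.37, adjusted p = 0.017). These neighbours are nearly identical and reads may be split between them, so their sum was also taken. It was 90.3, 63.9, 64.5 and 87.5 in ZL and 363, 180.3, 385 and 112 in ZF rats, all ZF rats above all ZL rats (p = 0.0286 by a two-sided exact permutation test, the smallest p of 4 rats against 4). Each of these genes was already without overlap, so that this p was fixed and is no further result. C3, the central component, was 26.8 ± 5.75 in ZL and 33.5 ± 8.89 in ZF rats (0.30, adjusted p = 0.59). The order of ZF rats was close to that of the injury genes, with rats 2 and 4 high and rats 3 and 5 low. Interferon-response genes rose in 8 of 24 with a median of 0.36, but this count rested on single rats, as the number that rose was 0 without ZF rat 3, 2 without ZL rat 1 or 2, 3 without ZL rat 3 or ZF rat 4 and 4 without ZL rat 4. It was 5 after quantile normalization and 3 on the ZL and ZF rats alone. Ifit3, an interferon-induced antiviral gene, was 3.05, 3.38, 2.38 and 4.02 in ZL and 3.93, 7.02, 6.84 and 7.21 in ZF rats (0.77, adjusted p = 0.017), with ZF rat 2 level with the higher ZL rats, and Oas1a (0.95, adjusted p = 0.027) and Tap1 (0.55, adjusted p = 0.031) rose. The 10 MHC class II genes all had log2 fold changes above 0, with RT1-DMa closest to passing (0.27, adjusted p = 0.062), and Cd74, the invariant chain, was 645 ± 59.7 in ZL and 766 ± 136 in ZF rats (0.23, adjusted p = 0.24). Of cytokines, chemokines and their receptors 5 of 21 rose and 2 fell. Il18, a cytokine gene of tubule cells, rose (0.68, adjusted p = 0.014), and Mif, the macrophage migration inhibitory factor gene, fell (−0.52, adjusted p = 0.017). Among macrophage markers 1 of 15 passed, Cd14 (0.57, adjusted p = 0.017), though all had log2 fold changes above 0 and a median of 0.31. The number that passed was 0 without ZF rat 2 and 3 without ZF rat 5, and 2 both after quantile normalization and on the ZL and ZF rats alone. Their summed level was 285, 276, 199 and 270.4 in ZL and 398, 381, 414 and 262 in ZF rats, and the groups overlapped through ZF rat 5. Oas1a lost its call without ZL rat 1 or 2 or ZF rat 3 or 4, Tap1 without ZL rat 1, 3 or 4 or ZF rat 3, C4a and Cd14 without ZF rat 2 and Ifit3 without ZF rat 3, with adjusted p-values of 0.053 to 0.088. Tap1 did not pass on the ZL and ZF rats alone (adjusted p = 0.062). Oas1a did not pass after quantile normalization (adjusted p = 0.057).

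TGF-beta signalling and matrix genes rose in part. Of the TGF-beta list 10 of 25 genes rose and 1 fell, with a median of 0.26. Ltbp2, a matrix protein that binds elastic fibres, was 10.0, 10.2, 6.92 and 10.4 in ZL and 54.9, 26.6, 35.6 and 24.2 in ZF rats (log2 fold change 1.75, standard error 0.24, adjusted p = 0.00049), and Grem1, which binds and blocks bone morphogenetic proteins, was 90.0, 78.2, 68.2 and 64.0 in ZL and 123, 144, 127 and 141 in ZF rats (0.83, adjusted p = 0.0026), both without overlap. For Ltbp2, named among the largest rises without overlap, this is no further result. Id1, a target of bone morphogenetic proteins, rose (0.72, adjusted p = 0.02), and Tgfb2, a ligand gene, rose (0.80, adjusted p = 0.0029). The count of higher genes was 6 without ZL rat 1 or ZF rat 2. Among collagens, laminins and other matrix genes 6 of 27 rose and 2 fell, and the number that rose was 2 without ZL rat 1 or 3 or ZF rat 2, 3 without ZF rat 3 and 10 without ZF rat 5, 11 after quantile normalization and 2 on the ZL and ZF rats alone. Mgp, an inhibitor of calcification, rose (0.98, adjusted p = 0.0091), as did Sparc (0.58, adjusted p = 0.0008), while Col1a1 was 88.5, 84.4, 54.3 and 83.1 in ZL and 155, 88.5, 149.6 and 91.7 in ZF rats (0.61, adjusted p = 0.044) with its lowest ZF rat level with the highest ZL rat. Fn1 was 96.3 ± 24.7 in ZL and 156 ± 55.5 in ZF rats and Col4a1 573 ± 59.1 in ZL and 693 ± 97.0 in ZF rats, and neither passed (adjusted p = 0.065 and 0.071). The basement membrane chain gene Col4a3 went the other way, with 435, 494, 613 and 418 in ZL and 305, 299.7, 279.8 and 328 in ZF rats (−0.68, adjusted p = 0.0012), without overlap. Of enzymes and inhibitors that remodel matrix, Timp1 (0.78, adjusted p = 0.0063) and Adamts1 (0.75, adjusted p = 0.02) rose, whereas the urokinase gene Plau fell from 646 ± 134 to 338 ± 104 (−0.97, adjusted p = 0.0089). Id1 lost its call without ZL rat 1 or ZF rat 2 or 5, Col1a1 without ZL rat 1, 3 or 4 or ZF rat 2 or 4 and Adamts1 without ZF rat 2, with adjusted p-values of 0.051 to 0.13. Col1a1 did not pass on the ZL and ZF rats alone (adjusted p = 0.081). Col1a1 did not pass with array quality weights (adjusted p = 0.083).

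Heat shock genes fell in 9 of 22, and the 2 that rose were the cold-inducible genes Rbm3 and Cirbp. The number that rose was 1 without ZF rat 2, 3 or 5 and 4 without ZL rat 2. Hspe1 and Hspd1, which encode the mitochondrial chaperonins HSP10 and HSP60, were 53.7, 38.4, 55.8 and 56.3 in ZL and 27.3, 28.4, 34.9 and 26.3 in ZF rats and 636, 549, 641 and 666 in ZL and 394, 408, 529 and 391 in ZF rats, respectively (−0.78, adjusted p = 0.0039 and −0.54, adjusted p = 0.0041). The cytosolic cochaperone gene Dnaja1 was 155, 161, 192 and 185 in ZL and 128, 110.4, 118 and 119.8 in ZF rats (−0.53, adjusted p = 0.001), and all 3 were without overlap. Rbm3 was 37.6, 37.5, 38.6 and 35.5 in ZL and 56.3, 53.1, 52.4 and 48.3 in ZF rats (0.48, adjusted p = 0.001), also without overlap. The inducible Hspa1b (0.33, adjusted p = 0.18) and the constitutive Hspa8 (−0.11, adjusted p = 0.54) did not pass. Cirbp lost its call without ZF rat 2, 3 or 5, with adjusted p-values of 0.051 to 0.065.

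The promoters of these genes are shown since they fell together and share a heat shock motif, GAANNTTC, which reads the same on both strands. It was found in 10 of 18 promoters of the list and in 5.72% of the 9392 tested genes that have a promoter in the RefSeq table of GRCr8, which holds 250 bases before to 50 after each start. Promoters of called lower genes held it in 7.46% and those of called higher genes in 6.06%. The windows of Hspe1 and Hspd1 lie head to head and overlap, so that they hold the same match, read from either strand, and Dnaja1 held 2 matches. Capitals mark the matches, and a match is not evidence of binding.
Hspe1 promoter (GRCr8 chr9:64084077-64084376, + strand): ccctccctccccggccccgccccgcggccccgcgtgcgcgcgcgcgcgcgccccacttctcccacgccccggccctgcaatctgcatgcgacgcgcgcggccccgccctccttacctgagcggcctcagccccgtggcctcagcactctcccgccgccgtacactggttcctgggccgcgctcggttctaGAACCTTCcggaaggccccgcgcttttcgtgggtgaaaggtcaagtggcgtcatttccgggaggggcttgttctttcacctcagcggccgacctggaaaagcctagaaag
Hspd1 promoter (GRCr8 chr9:64083988-64084287, − strand): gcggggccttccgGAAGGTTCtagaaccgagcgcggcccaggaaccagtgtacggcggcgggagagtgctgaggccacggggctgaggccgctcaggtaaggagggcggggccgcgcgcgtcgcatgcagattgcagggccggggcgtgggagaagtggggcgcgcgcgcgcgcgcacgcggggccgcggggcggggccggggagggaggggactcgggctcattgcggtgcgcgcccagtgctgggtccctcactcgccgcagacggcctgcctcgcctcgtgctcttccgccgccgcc
Dnaja1 promoter (GRCr8 chr5:60638154-60638453, + strand): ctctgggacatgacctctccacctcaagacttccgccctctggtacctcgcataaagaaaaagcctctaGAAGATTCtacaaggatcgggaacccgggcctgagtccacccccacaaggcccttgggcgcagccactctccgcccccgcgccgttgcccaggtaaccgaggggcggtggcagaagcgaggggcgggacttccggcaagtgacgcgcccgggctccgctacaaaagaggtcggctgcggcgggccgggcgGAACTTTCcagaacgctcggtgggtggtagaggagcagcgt
Of the 10 genes with the motif 5 fell and 5 were not called, among them Hspa8, Hspb1 and Bag3 with log2 fold changes of −0.11, 0.10 and −0.29. For the nuclear receptor HNF4, which drives proximal tubule genes, the letters CAAAGTCCA on either strand were in 0.330% of all promoters, in 12 of 1005 of called lower genes (1.19%) and in 1 of 743 of called higher genes (0.135%). Motifs named HNF1, SRE, CRE, AP-1 and E-box were counted too, so that the HNF4 contrast was picked from several. Promoters of called lower and called higher genes held HNF1 in 0.697% and 0.269%, SRE in 1.19% and 1.88% and CRE in 2.69% and 1.48%. They held AP-1 in 6.17% and 6.46% and the E-box in 10.5% and 11.4%. The HNF4 letters were in 2 of 19 promoters of the early and 0 of 8 of the late proximal tubule list. They were in 0 of 24 promoters of organic ion transporters, 0 of 26 of cytochrome P450 genes and 0 of 36 of conjugating enzymes. Slc3a1, which fell, held a match on the reverse strand.
Slc3a1 promoter (GRCr8 chr6:15394700-15394999, − strand): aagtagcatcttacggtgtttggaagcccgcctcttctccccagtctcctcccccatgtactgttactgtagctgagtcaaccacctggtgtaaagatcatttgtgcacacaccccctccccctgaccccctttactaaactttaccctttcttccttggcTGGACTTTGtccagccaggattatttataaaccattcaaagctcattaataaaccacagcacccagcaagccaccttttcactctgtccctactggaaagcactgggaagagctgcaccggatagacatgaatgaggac

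Other stress programmes were mixed. Of 26 endoplasmic reticulum genes 5 fell and 1 rose, and the number that fell was 0 without ZF rat 5, 1 without ZL rat 4 or ZF rat 3 and 3 without ZL rat 1 or 3, 2 after quantile normalization and 3 on the ZL and ZF rats alone. The chaperone gene Hspa5 was 503 ± 55.4 in ZL and 444 ± 46.5 in ZF rats (−0.18, adjusted p = 0.2). Of 17 hypoxia-inducible genes 3 rose and 2 fell. The number that rose was 1 without ZF rat 3, and the number that fell was 1 without ZL rat 1 or 4 or ZF rat 2 or 3. Ndrg1, an abundant tubular gene, was 3043, 3069.6, 3281 and 2186 in ZL and 1166, 1181, 1769 and 1182 in ZF rats (−1.13, adjusted p = 0.00035), without overlap, whereas Adm, which encodes adrenomedullin, rose (0.54, adjusted p = 0.0096), as did Egln3, a prolyl hydroxylase gene of oxygen sensing (0.69, adjusted p = 0.022), and Vegfa was 341 ± 47.8 in ZL and 348 ± 68.2 in ZF rats (0.02, adjusted p = 0.94). Tfrc, the transferrin receptor through which iron is taken up, was 175, 137, 122 and 127 in ZL and 61.9, 62.1, 62.9 and 68.9 in ZF rats (log2 fold change −1.11, standard error 0.09, adjusted p = 1.1e-05), without overlap and with the ZF rats close together. Immediate early genes rose in 9 of 27 and fell in 1, and Ier3 was 49.8, 48.3, 65.1 and 51.0 in ZL and 88.3, 86.2, 87.7 and 131 in ZF rats (0.85, adjusted p = 0.00086). Socs3 (0.93, adjusted p = 0.023) and Fos (1.18, adjusted p = 0.023) rose as well. Immediate early genes respond within minutes to handling and ischemia, whose part was not tested, and the number that rose was 5 without ZL rat 2 or ZF rat 2. Socs3 lost its call without ZL rat 1 or 2 or ZF rat 2, Egln3 without ZL rat 2 or 3 or ZF rat 2 or 3 and Fos without ZL rat 2 or 3 or ZF rat 3 or 5, with adjusted p-values of 0.051 to 0.068.

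In lists for basic cell functions the called share ran from 4.62% to 17.6%, against 18.8% of all tested genes. Of 65 cytosolic ribosomal protein genes 3 fell and none rose, with a median of −0.08. Proteasome subunits had 4 of 31 lower and none higher. Among lysosome and autophagy genes 3 of 37 fell and 2 rose. Among genes of protein endocytosis 2 of 17 fell and 1 rose. With single rats left out, the numbers that fell ran up to 10, 7, 7 and 5 in these 4 lists, each without ZF rat 4. Their lowest numbers were 2, 1, 0 and 0. For lysosome and autophagy genes the balance turned with the scaling, since 5 rose and 1 fell after quantile normalization, and the number that rose was 0 without ZF rat 3 and 1 without ZL rat 3 or 4 or ZF rat 2 or 4. Quantile normalization left 2 proteasome genes lower, and on the ZL and ZF rats alone no gene of protein endocytosis fell.

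Several of the largest changes lay outside the lists. Ptprv, a receptor-type tyrosine phosphatase gene, was 10.0, 13.8, 11.6 and 8.49 in ZL and 53.6, 56.9, 53.2 and 61.1 in ZF rats (log2 fold change 2.27, standard error 0.13, adjusted p = 2.8e-07), with little spread in either group. Camkv, which encodes a kinase-like vesicle protein, was 2.24, 3.21, 3.29 and 1.61 in ZL and 14.2, 13.2, 8.89 and 18.3 in ZF rats (2.02, adjusted p = 3.4e-05). Kng1l1, a kininogen gene (Kng1 in the reference) from which kinins are cut, was 7.00, 5.37, 8.16 and 5.63 in ZL and 30.5, 20.4, 27.3 and 30.8 in ZF rats (1.91, adjusted p = 1.7e-05), and Dpp6, which modulates potassium channels, was 2.60, 2.69, 2.15 and 3.22 in ZL and 10.8, 10.3, 9.14 and 13.2 in ZF rats (1.69, adjusted p = 1.1e-05). In the other direction, Gc, the vitamin D-binding protein gene, was 30.6, 9.10, 12.2 and 57.6 in ZL and 8.25, 1.00, 2.99 and 0.219 in ZF rats (−2.86, adjusted p = 0.0053), Gucy1b2, a guanylate cyclase subunit gene, was 29.7, 10.6, 14.2 and 63.2 in ZL and 9.30, 1.20, 4.96 and 0.984 in ZF rats (−2.58, adjusted p = 0.0061), and Cacng5, of the calcium channel gamma subunit family, was 27.0, 3.90, 6.58 and 34.7 in ZL and 3.16, 0.702, 1.37 and 0.219 in ZF rats (−2.71, adjusted p = 0.0047). LOC361914, which was not matched to the reference, was 22.2, 1.21, 3.06 and 75.9 in ZL and 0.767, 0.301, 0.598 and 0.547 in ZF rats (−2.87, adjusted p = 0.025). These 8 genes were chosen among genes without overlap between the groups, so that their lack of overlap is no further result. The 4 that fell had ZL rat 4 highest and ZL rat 2 lowest, as Slc7a13, Slco1a1, Agt and Kap did. LOC361914 lost its call without ZL rat 1 or ZF rat 3 or 5, with adjusted p-values of 0.0505 to 0.075. LOC361914 did not pass on the ZL and ZF rats alone (adjusted p = 0.061).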

How the data were processed

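Renal cortex RNA of 4 ZL, 4 ZF and 4 ZF-SGLT2i rats was depleted of ribosomal RNA and sequenced as directional paired-end libraries. The submitters' processing notes name Trimmomatic 0.38, Bowtie2, RSEM 1.3.0, edgeR and rn6, and the annotation is not given in the sources used here. The authors deposited 1 table of normalized signal per gene, read counts scaled for each library (CPM), whose sums per rat were not equal. Each value was a whole multiple of the column's smallest value (within 0.001 of a read for 100% of values in all 12 columns), which gave back the reads per rat, possibly rounded from estimated counts, and edgeR and DESeq2 called 2180 and 2358 genes on them. The ribosomal RNA genes Rn28s and Rn45s held 7.25% to 12.0% of the reads of the ZL and ZF rats, and the precision of low genes is limited by counting error.

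Groups were taken from the labels. Nothing says more than that rats are separate samples, so p-values measure the spread between these rats. Genes that reached a value of 1 in 4 or more of the 12 rats were tested on log2(value + 1) with limma 3.58.1 (R 4.3.3) in 1 fit of all 3 groups, without covariates, and Benjamini-Hochberg adjusted over 11633 genes at 0.05. The fit was tested on simulated data first. Pairs of rats all differed by more than counting noise, so no library was taken as a copy.

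Members and the 57 lists beyond clock and cell cycle were chosen with earlier results of these data known, and so give no independent support. Genes were named by a rule (Lepr and control genes, 10 largest rises and falls of non-overlapping genes with a mean of at least 5, up to 4 called genes of each list, and a fixed set of anchor genes), except 32 genes of 202 named, mostly uncalled list members, chosen after their values were seen. Called list members that lost their call with several rats left out were counted but mostly not named. Some other genes that the rule names are not reported here. Alternatives were another pseudocount and filters, other scalings, the ZL and ZF rats alone, a replicate block, array weights, each rat left out, and edgeR 4.0.16 and DESeq2 1.42.0 on the recovered counts. Gene names of 12926 of 13151 genes matched the GRCr8 RefSeq table, which differs in build from rn6 and gave names and promoters only.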

Additional observations from a re-analysis of the deposited data

Results flagged for a closer look

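In 23 of 404 checks, 1 rat stood apart from the other 3 of its group by Dixon's test at the 95% level, for 202 genes in 2 groups each. Chance gives about 1 in 20 such cases, and 5.69% were found here. ZF rat 2 was below the other rats of its group in Ifit3 (3.93 against 6.84 to 7.21) and Kl (732 against 842 to 865). ZF rat 4 was above the other rats of its group in Acadm (335 against 267 to 278), Fh (158 against 132 to 133), Hspd1 (529 against 391 to 408), Ndrg1 (1769 against 1166 to 1182) and Vnn1 (121 against 71.6 to 77.4). ZF rat 5 was above the other rats of its group in Ier3 (131 against 86.2 to 88.3), Ptgs2 (45.6 against 19.7 to 22.1) and Tfrc (68.9 against 61.9 to 62.9). ZL rat 1 was above the other rats of its group in Atp5i (84.7 against 75.2 to 76.5) and Cd74 (734 against 612 to 619). ZL rat 2 was above the other rats of its group in Nphs1 (173 against 132 to 134) and Spp1 (178 against 166 to 167) and below them in Hspe1 (38.4 against 53.7 to 56.3). ZL rat 3 was above the other rats of its group in Ier3 (65.1 against 48.3 to 51.0) and below them in Cd14 (3.74 against 5.46 to 5.72), Col1a1 (54.3 against 83.1 to 88.5) and Ltbp2 (6.92 against 10.0 to 10.4). ZL rat 4 was below the other rats of its group in Agtr1a (44.6 against 52.2 to 52.9), Egf (1735 against 2139 to 2188), Gapdh (1790.3 against 2190.4 to 2241) and Slc22a6 (525 against 707 to 726). Values are in CPM, those of the rat first and the range of the other 3 rats second, and their causes were not tested.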

How the results depend on the processing

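Leaving out each rat in turn gave 1389 to 2453 called genes, 628 to 1057 higher and 744 to 1396 lower, against 2185, 953 and 1232 with all rats. Rat numbers 2 to 4 occur in both groups, and the labels do not say whether the numbers pair the rats. Deviations from the group means of rats with the same number correlated across genes at −0.38 (rat 2), 0.091 (rat 3) and 0.13 (rat 4). Those of rats with different numbers correlated at −0.378 to 0.455, so that these values cannot decide whether the rats were paired. With the number as a replicate block 807 genes were called, 412 higher and 395 lower. The other 9 alternatives (another pseudocount, filters on low values, other scalings, ZL and ZF rats alone, array weights, edgeR and DESeq2 on recovered counts) gave 1621 to 2807 called genes. Of 155 called genes named in the text, 79 were called in every fit that tested them, 40 were lost with the replicate block only and 36 in another fit. No called gene changed sign.
Genes that were not called changed sign in these fits, with log2 fold changes of 0.0023 for Actb, 0.026 for Atp5b, 0.14 for Gapdh, −0.061 for Hmox1, 0.11 for Hspa8, −0.041 for Nos1 and 0.075 for Slc34a1 with quantile normalization, −0.011 for Lepr and −0.034 for Plin2 with array quality weights and −0.0037 for Hmox1, 0.032 for Hprt1, −0.061 for Nos1 and −0.12 for Vegfa with the replicate block. With rats left out in turn the values ran from −0.040 to 0.19 for Atp6v1b1, −0.074 to 0.088 for Hmox1, −0.031 to 0.098 for Kl, −0.030 to 0.28 for Lepr, −0.0050 to 0.18 for Nos1, −0.059 to 0.057 for Plin2, −0.023 to 0.28 for Slc5a2, −0.10 to 0.22 for Umod and −0.085 to 0.15 for Vegfa. The cause was not tested. With 4 rats a group the spread is known only roughly, and a gene that did not pass is not shown to be unchanged.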
